A study of Mus musculus with 9 samples.

Results

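Tetraspanins are membrane proteins that cross the bilayer 4 times, and the transcripts of 8 of them, Cd81, Cd9, Cd63, Cd82, Cd151, Tspan3, Tspan4 and Tspan6, were followed in mouse ES cells deprived of cysteine (Cys) or threonine (Thr). The 8 genes were taken by symbol from a table of 20189 genes, and the set was put together because Cd81 and Tspan6 had been seen to fall in these same libraries. The values of that pair are therefore given as a description, with no test. Of the 8, 7 had a mean of at least 5 CPM, the unit of counts scaled to a common library total, and Cd82 did not.

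Tetraspanins have few known ligands of their own. They bind each other and neighbouring proteins, among them integrins, immunoglobulin superfamily proteins and ADAM proteases, in patches of membrane often called tetraspanin webs, and they control how these partners move between the cell surface and endosomes. Cd9, Cd81 and Cd63 are also the usual protein markers of exosomes, the small vesicles that cells release, and Cd9 and Cd81 on eggs and other cells take part in membrane fusion.

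The cells were wild-type E14, a mouse ES line grown on gelatin with serum and leukemia inhibitory factor (LIF), and all 9 samples came from this line. In 1 group of 3, Thr was withheld for 3 h, in another group of 3, Cys was withheld for 3 h, and the remaining 3, called unstarved, received medium with all amino acids for the same time. The starvation media that the authors describe held dialyzed serum and LIF, but they give no separate recipe for these 9 samples. The sample titles give the amino acid that was withheld, while the protocol text in the labels speaks of Arg and Leu, so the groups rest on the titles. The labels do not say whether the 3 samples of a group were separate cultures, and p-values then measure the spread between these samples, which may be technical.

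Poly(A) RNA was sequenced, and totals ran from 54294288 to 61459894 counts in unstarved, from 48763102 to 74962733 in Thr-starved and from 57700492 to 62657358 in Cys-starved libraries. All 10 pluripotency markers examined, Pou5f1 and Nanog among them, had mean levels over the 9 libraries between 120 and 821 CPM. Their summed level was 4355 to 4393 CPM in unstarved, 4334 to 4414 in Thr-starved and 4104 to 4150 in Cys-starved libraries. Single markers moved in both directions with Thr, farthest Utf1, from 307.4 to 95.07 CPM, and Klf4, from 147.9 to 267.1 CPM. Markers of other cells were lower than these: 6 of 6 primitive endoderm markers were present with a summed level of 8.42 to 9.12 CPM in unstarved, 6.94 to 8.32 in Thr-starved and 10.3 to 12.2 in Cys-starved libraries. The 3 of 6 fibroblast markers in the table summed to 9.96 to 10.7, 8.76 to 9.53 and 9.51 to 12.6 CPM in the same order, and 5 of 6 germ layer and trophoblast markers to 20.5 to 21.3, 25.1 to 28.6 and 25.4 to 26.9 CPM. Of the latter, Sox1 and Pax6 averaged more than 5 CPM, at 11.9 and 8.37. Single markers moved here too: Sox1 went from 8.37 CPM in unstarved to 15.4 with Thr and 12.0 with Cys, and T from 3.39 to 1.17 and 2.93. No marker in the table was at 0 in all libraries, and the part of these small sums in the results was not tested. In bulk RNA, fewer cells of a type and less RNA per cell cannot be told apart.

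Cd81 and Tspan6 are shown first because their responses were the farthest apart of all pairs among the 7 expressed genes, and their promoters are printed so that the difference in base composition can be seen. The sequences are the 250 bases before the RefSeq transcript start in GRCm38.p6, written 5′ to 3′ on the strand of the gene. Cd81 is at chr7:143052500-143052749 on the plus strand, where the last 11 bases already lie inside the GENCODE gene, and Tspan6 is at chrX:133898430-133898679 on the minus strand. Capitals mark the GC box GGGCGG in Cd81, and in Tspan6 each run of GAAGAAGAAGAA and the ETS core CCGGAA, which is read there on the opposite strand as TTCCGG.
Cd81: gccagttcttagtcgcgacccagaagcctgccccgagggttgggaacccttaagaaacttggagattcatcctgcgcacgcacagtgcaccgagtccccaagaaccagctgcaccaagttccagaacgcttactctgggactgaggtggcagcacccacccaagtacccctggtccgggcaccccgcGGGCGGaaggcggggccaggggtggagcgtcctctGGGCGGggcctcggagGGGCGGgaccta
Tspan6: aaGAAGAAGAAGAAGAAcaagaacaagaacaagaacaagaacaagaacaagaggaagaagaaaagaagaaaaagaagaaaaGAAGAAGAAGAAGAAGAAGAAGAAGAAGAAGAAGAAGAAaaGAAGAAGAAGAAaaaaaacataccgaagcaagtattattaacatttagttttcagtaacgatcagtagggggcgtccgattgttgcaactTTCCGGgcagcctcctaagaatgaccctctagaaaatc
The Cd81 window had 65.6% G and C and 3 GC boxes, and the Tspan6 window had 36% G and C, no GC box, 1 ETS core and long GAA repeats. Over 32851 RefSeq windows of this length the median was 52.4% G and C, and 5.81% of windows had less than that of Tspan6. Counting both strands, 32.7% of windows held a GC box, 12% an ETS core and 0.134% the GAA run. These matches describe letters and not bound factors.

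The other 6 genes also had a window. Cd9, with 61.6% G and C, held 2 GC boxes and 1 ETS core, Cd151, with 62.4%, and Tspan4, with 68%, held 2 GC boxes each. Cd82, with 58.4%, held 1 GC box, and its RefSeq start lies 190 bases inside the GENCODE gene. The windows of Cd63, with 48.8%, and Tspan3, with 52.4%, held no GC box. That of Tspan3 held 1 CCAAT box, a motif present in 33.8% of all windows. The RefSeq starts of Cd63 and Tspan3 lie 8356 and 4407 bases inside the GENCODE genes, counted from the 5′ boundary. These 2 windows therefore show another start than the outermost one. The cAMP response element TGACGTCA, the amino acid response element letters TGATGCAA, the E-box CACGTG and the TATA box TATAAA were in none of the 8 windows, against 1.55%, 0.791%, 6.02% and 12.4% of all windows.

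Under Cys starvation all 7 expressed tetraspanins were lower than in unstarved cells in each of the 3 libraries. For Cd81 and Tspan6, chosen for their fall, this was set by the choice, and the other 5 were lower without overlap as well. Under Thr starvation the same 7 split, with Cd81, Cd9, Tspan4 and Cd151 lower and Tspan6, Tspan3 and Cd63 higher. Both starvations were compared with the same 3 unstarved libraries, so their fold changes are not independent of each other, and the direct comparison of Thr-starved with Cys-starved libraries is given beside them. Over all 20143 genes tested, libraries lay apart from the unstarved ones without overlap on the lower side for 23.5% and on the higher side for 23% of genes with Cys, and for 33.9% and 32.6% with Thr. Between the starvations, 33.6% of genes were separate on the lower and 32.1% on the higher side for Thr-starved libraries. All these shares include genes that averaged less than 5 CPM, while the 7 averaged 5 CPM or more.

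**Figure D1:**
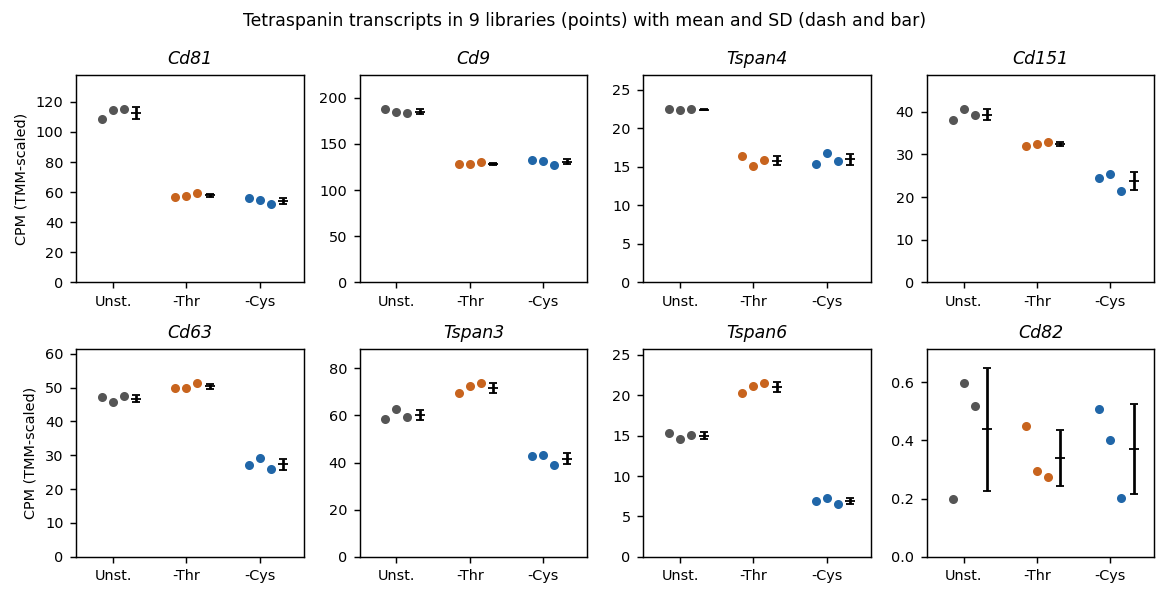
Levels of the 8 tetraspanin transcripts in CPM on a linear axis from 0, with a point for each library of the unstarved (Unst.), Thr-starved (-Thr) and Cys-starved (-Cys) groups and the mean and SD beside them. Cys-starved points lie under the unstarved ones in each panel but that of Cd82, whose points overlap, and Thr-starved points lie above the unstarved ones for Cd63, Tspan3 and Tspan6.

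Cd81 (ENSMUSG00000037706, chr7:143052739-143067934, plus strand, GRCm38) encodes a widely made tetraspanin that is a receptor for hepatitis C virus in human liver. Its level was 108, 115 and 115 CPM in the unstarved libraries, 57.1, 57.4 and 59.2 CPM with Thr starvation and 56.2, 54.5 and 51.9 CPM with Cys starvation. The starved and unstarved libraries were far apart, and in CPM the Cys-starved libraries all lay under the Thr-starved ones by a small margin. The log2 fold change against unstarved was -0.96 (SE 0.034) with Thr and -1.06 (SE 0.034) with Cys, and the difference of Thr-starved minus Cys-starved was 0.10 (SE 0.035). Of the 11410 genes that averaged 5 CPM or more, 3 had a more negative change than Cd81 under Cys starvation and 537 under Thr starvation. An antisense gene, R74862, overlaps the start of Cd81 and had 1.59 CPM in unstarved, 1.8 in Thr-starved and 1.45 in Cys-starved cells.

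Tspan6 (ENSMUSG00000067377, chrX:133891068-133898429, minus strand) encodes a tetraspanin of endosomes that has been tied to exosome release and to restraint of antiviral RNA sensing. Its level was 15.4, 14.6 and 15.1 CPM in unstarved, 20.3, 21.2 and 21.5 CPM in Thr-starved and 6.94, 7.31 and 6.47 CPM in Cys-starved libraries. Tspan6 was thus lower under Cys starvation but higher under Thr starvation, and no 2 groups overlapped. The log2 fold change was 0.48 (SE 0.055) with Thr and -1.12 (SE 0.062) with Cys, and Thr-starved minus Cys-starved came to 1.60 (SE 0.060). None of the 11410 genes had a more negative fold change than Tspan6 with Cys, that is 0 genes, and 40 had a larger difference in favour of Thr-starved over Cys-starved cells. No other annotated gene overlaps Tspan6.

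The other 6 genes were tested with edgeR over all genes and adjusted by Benjamini-Hochberg. With Cys, 5 were lower, none was higher and 1, Cd82, was not called, while 18.8% of all 20143 genes tested were called lower and 17.5% higher. With Thr, 3 were lower, 2 were higher and Cd82 was not called, against 31.9% of all genes lower and 31.1% higher. In the direct comparison 3 were higher in Thr-starved than in Cys-starved cells and 3 were not called, against 30.4% of all genes called higher and 31.6% lower. Among the 11410 genes that averaged 5 CPM or more, calls were more frequent: 30.5% were lower and 24.6% higher with Cys, 39.1% lower and 41.5% higher with Thr, and 36.9% lower and 43.7% higher in Thr-starved than in Cys-starved cells. With the size factors that the authors used, the calls with Cys moved from 3523 higher and 3790 lower to 2787 higher and 4786 lower, and the directions of the 7 expressed genes against unstarved were the same. The median log2 fold change of all genes was -0.02 with Thr and 0.01 with Cys, against a median of -0.33 and -0.52 for these 6 genes. Without Cd82 the median of the other 5 was -0.28 with Thr, where 3 were lower and 2 higher, and -0.53 with Cys. Genes that averaged 5 CPM or more had medians of 0.01 and -0.02.

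Cd9 and Tspan4 were lower in both starvations, and the difference between the starvations was not called for either. Cd9 (ENSMUSG00000030342, chr6:125460266-125494791, minus strand), which is needed on the egg for sperm fusion, stood at 188, 184 and 183 CPM in unstarved, 128, 128 and 130 in Thr-starved and 133, 132 and 127 in Cys-starved libraries. The 2 starved groups of Cd9 overlapped in CPM, and each lay under all unstarved libraries. Cd9 fell by 0.52 on the log2 scale with Thr (SE 0.025, adjusted p = 2.4e-14) and by 0.50 with Cys (SE 0.025, adjusted p = 6.8e-13). Between the starvations the Cd9 difference was -0.02 (SE 0.025, adjusted p = 0.46). The antisense gene Gm28809 inside Cd9 was at 1.12, 1.14 and 1.67 CPM in unstarved, Thr-starved and Cys-starved cells.

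Tspan4 (ENSMUSG00000025511, chr7:141475240-141493427, plus strand), a structural part of migrasomes, the vesicles left on retraction fibres of moving cells, had 22.4, 22.3 and 22.5 CPM in unstarved, 16.4, 15.2 and 15.9 in Thr-starved and 15.4, 16.8 and 15.8 in Cys-starved libraries. As for Cd9, both starved groups were under the unstarved one and overlapped each other. The Tspan4 log2 fold change was -0.50 with Thr (SE 0.051, adjusted p = 9.2e-09) and -0.49 with Cys (SE 0.050, adjusted p = 6.8e-08), and -0.01 between them (SE 0.052, adjusted p = 0.82). Of the 21 pairs that the 7 expressed genes form, Cd9 and Tspan4 had the most similar profiles over the 9 libraries, with a root mean square distance of 0.047 on the log2(CPM + 0.5) scale, and Cd81 and Tspan6 the least similar, at 0.82. The 3′ end of Tspan4 overlaps Chid1 on the other strand, and Chid1 was higher in both starvations, with log2 fold changes of 0.21 and 0.25.

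Cd151 (ENSMUSG00000025510, chr7:141467392-141471473, plus strand), the tetraspanin that binds laminin-binding integrins most tightly, was lower in both starvations but more so with Cys. It had 38.1, 40.6 and 39.1 CPM in unstarved, 32.04, 32.3 and 32.8 in Thr-starved and 24.4, 25.4 and 21.5 in Cys-starved libraries. The 3 groups of Cd151 were separate. The log2 fold change was -0.28 with Thr (SE 0.048, adjusted p = 2.9e-05) and -0.72 with Cys (SE 0.049, adjusted p = 1.2e-10), and the direct difference was 0.45 (SE 0.050, adjusted p = 5.8e-08).

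Cd63 and Tspan3 were higher with Thr and lower with Cys, as Tspan6 was. Cd63 (ENSMUSG00000025351, chr10:128900989-128912822, plus strand), the tetraspanin of late endosomes and lysosomes, had 47.2, 45.6 and 47.6 CPM in unstarved, 50.02, 49.97 and 51.2 in Thr-starved and 27.1, 29.1 and 25.9 in Cys-starved libraries. Its Thr-starved libraries lay just above the unstarved ones and its Cys-starved libraries far under both. The log2 fold change was 0.11 with Thr (SE 0.040, adjusted p = 0.021), -0.77 with Cys (SE 0.041, adjusted p = 2e-12) and 0.88 between them (SE 0.041, adjusted p = 1.7e-14). The increase with Thr rests on single libraries: without Thr-starved replicate 3 it was 0.10 (adjusted p = 0.071) and without unstarved replicate 2 it was 0.10 (adjusted p = 0.063), and over all alternatives tried the adjusted p ran from 0.0087 to 0.071.

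Tspan3 (ENSMUSG00000032324, chr9:56131725-56165477, minus strand), known from the surface of myeloid leukaemia stem cells, had 58.4, 62.7 and 59.5 CPM in unstarved, 69.3, 72.4 and 73.5 in Thr-starved and 42.9, 43.4 and 38.9 in Cys-starved libraries. No 2 groups of Tspan3 overlapped. The log2 fold change was 0.25 with Thr (SE 0.040, adjusted p = 6.8e-06), -0.53 with Cys (SE 0.041, adjusted p = 8.4e-10) and 0.78 between them (SE 0.041, adjusted p = 1.1e-13).

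Cd82 (ENSMUSG00000027215, chr2:93419111-93463140, minus strand), a suppressor of metastasis in several tumours, was close to silent in these cells. Its raw counts were 12, 36 and 28 in unstarved, 22, 14 and 20 in Thr-starved and 32, 26 and 12 in Cys-starved libraries. The 3 groups overlapped, and at 0.44, 0.34 and 0.37 CPM on average no change of Cd82 was detectable at this depth. The log2 fold change was -0.38 with Thr (SE 0.42, adjusted p = 0.44) and -0.23 with Cys (SE 0.41, adjusted p = 0.71).

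With Cys, the 7 expressed genes all stood near the negative end of these 11410 genes. Tspan6 and Cd81 had 0 and 3 genes with a more negative change, Cd63 had 13, Cd151 26, Tspan3 104, Cd9 128 and Tspan4 144, which is 1.26% of the genes. With Thr the lower 4 were less extreme, and 537 genes had a more negative change than Cd81, 1588 than Cd9, 1699 than Tspan4 and 2968 than Cd151. These places describe the contrasts by which Cd81 and Tspan6 had been chosen and carry no test.

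**Figure D2:**
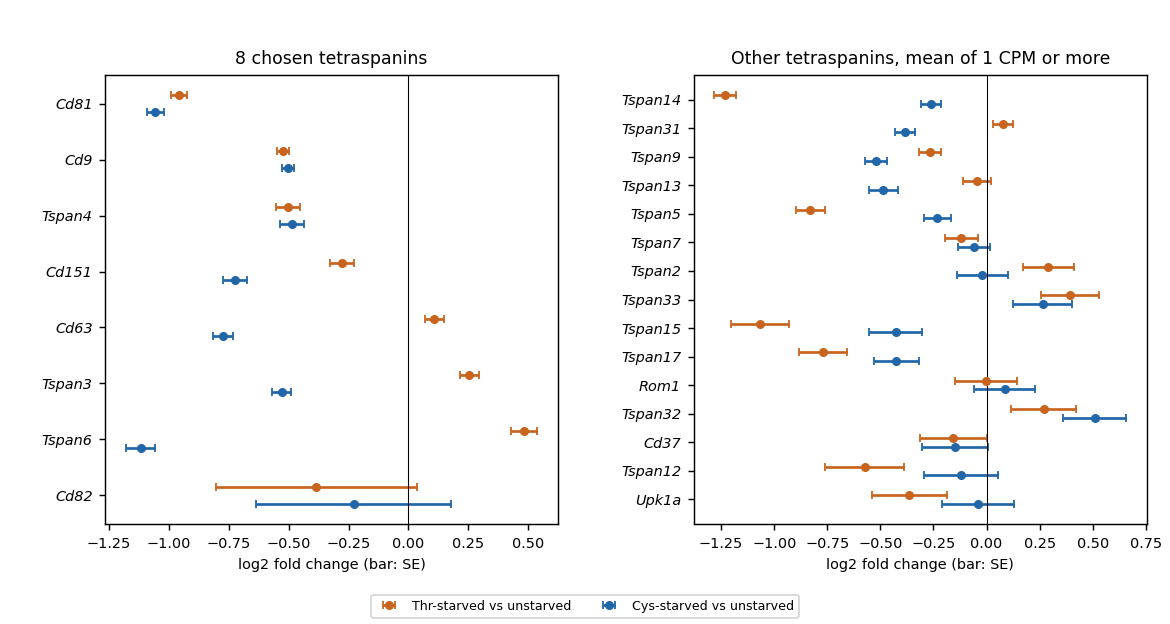
Log2 fold change of Thr-starved (orange) and Cys-starved (blue) against unstarved libraries, with the SE as a bar, for the 8 chosen tetraspanins on the left and 15 other tetraspanins averaging 1 CPM or more on the right. On the left the blue points of all 7 expressed genes lie under 0, from -1.12 for Tspan6 to -0.49 for Tspan4, while the orange points lie on both sides.

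To compare levels between genes, counts were scaled by the length of the exons and given as TPM, which sums to the same total in every library. TPM carry no TMM factor, and small differences between the starvations depended on the scale. In TPM the Thr-starved and Cys-starved libraries of Cd81 overlapped (42.76 to 44.49 and 40.74 to 44.33). Those of Cd9 did not (135.2 to 137.6 and 140.9 to 148.0). In unstarved cells Cd9 had the highest level at 191 TPM, followed by Cd81 at 82.5, Cd151 at 30.2, Tspan3 at 29.7, Cd63 at 26.8, Tspan4 at 21.7, Tspan6 at 15.4 and Cd82 at 0.31 TPM. Of these neighbours only Cd151 (29.2 to 31.3 TPM) and Tspan3 (28.7 to 31.0 TPM) overlapped between libraries, and with the longest transcript as length they changed places. With Thr starvation the order became Cd9 (137 TPM), Cd81 (43.6), Tspan3 (36.4), Cd63 (29.7), Cd151 (25.6), Tspan6 (22.1), Tspan4 (15.7) and Cd82 (0.24), with no overlap between neighbours. With Cys starvation Cd9 (145 TPM) and Cd81 (42.5 TPM) still led and Tspan6 (7.58 TPM) was the lowest of the expressed genes, while Tspan3, Cd151, Cd63 and Tspan4, at 22.1, 19.6, 16.8 and 16.6 TPM, each overlapped the next in order.

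The summed level of the 8 transcripts was 397 ± 3.43 TPM in unstarved, 309.7 ± 4.21 in Thr-starved and 270.0 ± 9.17 in Cys-starved cells (SD, n = 3 each). Cd9 alone made up 48.0% of that sum in unstarved cells, 44.1% with Thr and 53.6% with Cys starvation. The share of Cd81 was 20.8%, 14.1% and 15.8%, that of Tspan3 7.47%, 11.7% and 8.16%, that of Cd63 6.74%, 9.58% and 6.22%, and that of Tspan6 3.87%, 7.12% and 2.81%. The sum includes Cd81, which was chosen for its fall, so its decrease is partly set by the choice. Without Cd81 and Tspan6 the other 6 summed to 299.4 ± 1.48, 244.1 ± 2.701 and 219.9 ± 7.17 TPM, with no overlap of libraries between groups. With Thr the largest gain in share was that of Tspan3, ahead of Tspan6 and Cd63, and with Cys it was that of Cd9. The shares are also partly set by the choice, since the fall of Cd81 by itself raises those of the other genes. The level of Cd9 was 191 TPM in unstarved and 145 TPM in Cys-starved cells, so its share rose while its level was lower.

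**Figure D3:**
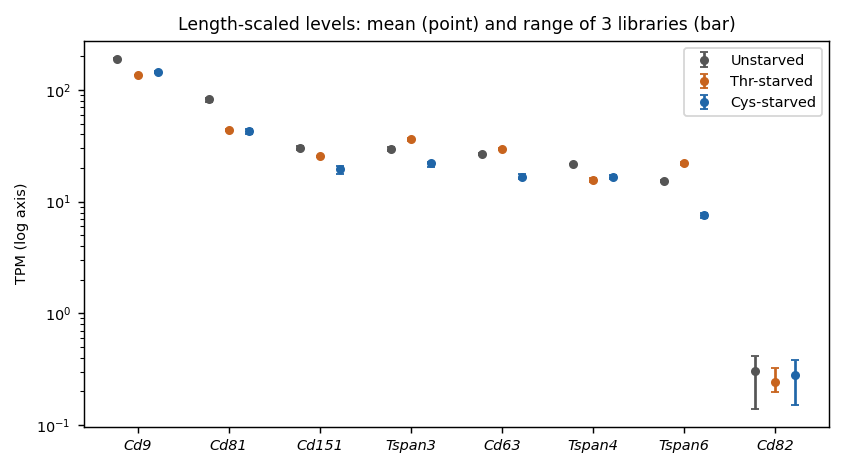
Mean level of each tetraspanin transcript in TPM on a log axis in unstarved (grey), Thr-starved (orange) and Cys-starved (blue) cells, with the range of 3 libraries as a bar. Cd9 is highest in all 3 groups, Cd82 lies under 1 TPM, and Tspan6 spans from 7.58 TPM with Cys to 22.1 TPM with Thr starvation.

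Of 25 further tetraspanins looked for, 18 were in the table, and Tspan10, Tspan11, Tspan16, Tspan19, Cd53, Upk1b and Prph2 were not analysed here. With Cys, 8 of the 18 were lower, 1 was higher and 9 were not called, against 18.8% of all genes lower and 17.5% higher, with a median log2 fold change of -0.19. With Thr, 8 were lower, 2 were higher and 8 were not called, against 31.9% and 31.1% of all genes, with a median of -0.21. In the direct comparison 6 were lower and 4 higher in Thr-starved than in Cys-starved cells, and 8 were not called. Over all genes, 31.6% were lower and 30.4% higher in that comparison. The 1 higher with Cys was Tspan32, the gene next to Cd81 (0.51, adjusted p = 0.0089), and without unstarved replicate 2 none was called. The 2 higher with Thr were Tspan2 (0.29, adjusted p = 0.04) and Tspan33 (0.39, adjusted p = 0.017), and their count fell to 0 without Thr-starved replicate 1 and to 1 without Thr-starved replicate 2, unstarved replicate 1 or unstarved replicate 2. Tspan32, Tspan2 and Tspan33 were named after their values were seen.

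Tspan14, Tspan5, Tspan15, Tspan17 and Tspan33 belong to the TspanC8 group, which carries the protease ADAM10 out of the endoplasmic reticulum and steers what it cleaves. Tspan14, the most abundant of them, had 45.6 CPM in unstarved, 19.4 in Thr-starved and 38.0 in Cys-starved cells, a log2 fold change of -1.23 with Thr (adjusted p = 2e-15) and -0.26 with Cys (adjusted p = 0.00013). Tspan5 changed by -0.83 and -0.23, and Tspan15 and Tspan17, named after their values were seen, by -1.07 and -0.77 with Thr and by -0.43 and -0.43 with Cys, all past the threshold. Adam10 itself was lower in both, by -0.69 with Thr and -0.19 with Cys (adjusted p = 6.7e-12 and 0.0014). In the direct comparison Tspan14, Tspan5, Tspan15, Tspan17 and Adam10 were lower in Thr-starved than in Cys-starved cells, by -0.97, -0.60, -0.64, -0.35 and -0.50 (adjusted p from 2e-13 to 0.012), the opposite direction to Cd151, Cd63 and Tspan3. Tspan33 differed from the rest of the TspanC8 group, with 0.39 with Thr, 0.26 with Cys (adjusted p = 0.15) and 0.13 between the starvations (adjusted p = 0.42). The other tetraspanins called lower under Cys were Tspan1, named after its values were seen, at 0.61 CPM in unstarved, 0.05 in Thr-starved and 0.18 in Cys-starved cells, and Tspan9 (-0.52, adjusted p = 5.6e-08), Tspan13 (-0.49, adjusted p = 5.1e-06) and Tspan31 (-0.38, adjusted p = 1.1e-06). Tspan9 was also lower with Thr (-0.26, adjusted p = 0.00012), while Tspan13 and Tspan31 were not called with Thr (-0.05 and 0.08, adjusted p = 0.56 and 0.16). Between the starvations Tspan9, Tspan13 and Tspan31 were higher in Thr-starved cells, by 0.26, 0.44 and 0.46 (adjusted p from 1.5e-08 to 0.00026). This was the direction of Cd151, Cd63 and Tspan3.

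Transcripts of proteins that bind tetraspanins were examined next. Of 15 listed, 14 were lower and 1 was higher with Thr, and 10 were lower, 1 was higher and 4 were not called with Cys, with medians of -0.60 and -0.18. Over all genes, 31.9% were lower and 31.1% higher with Thr, and 18.8% and 17.5% with Cys. Igsf8 and Ptgfrn, the direct immunoglobulin partners of Cd9 and Cd81, changed by -0.72 and -0.86 with Thr and by -0.27 and -0.39 with Cys, each past the threshold. Cd81 itself had nearly equal changes in both starvations, -0.96 and -1.06, whereas Igsf3 had -1.56 with Thr (adjusted p = 1.9e-14) and 0.03 with Cys (adjusted p = 0.79). Ifitm3 and Ifitm1, small membrane proteins that block virus entry, had -1.32 and -0.60 with Thr and -0.11 and -0.28 with Cys.

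Among the integrin chains that Cd151 binds, Itga3 was lower in both, at -0.57 and -0.18, and Itga6 was lower with Thr (-0.30) and not called with Cys (0.01, adjusted p = 0.88). Itgb1, their common beta chain, was the 1 partner that was higher with Thr (0.17, adjusted p = 1.3e-06), and it was lower with Cys (-0.32, adjusted p = 4.4e-10), the same directions as Cd63, Tspan3 and Tspan6. The 1 partner that was higher with Cys was Itgb4, at 0.37 (adjusted p = 0.0033), named after its value was seen.

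**Figure D4:**
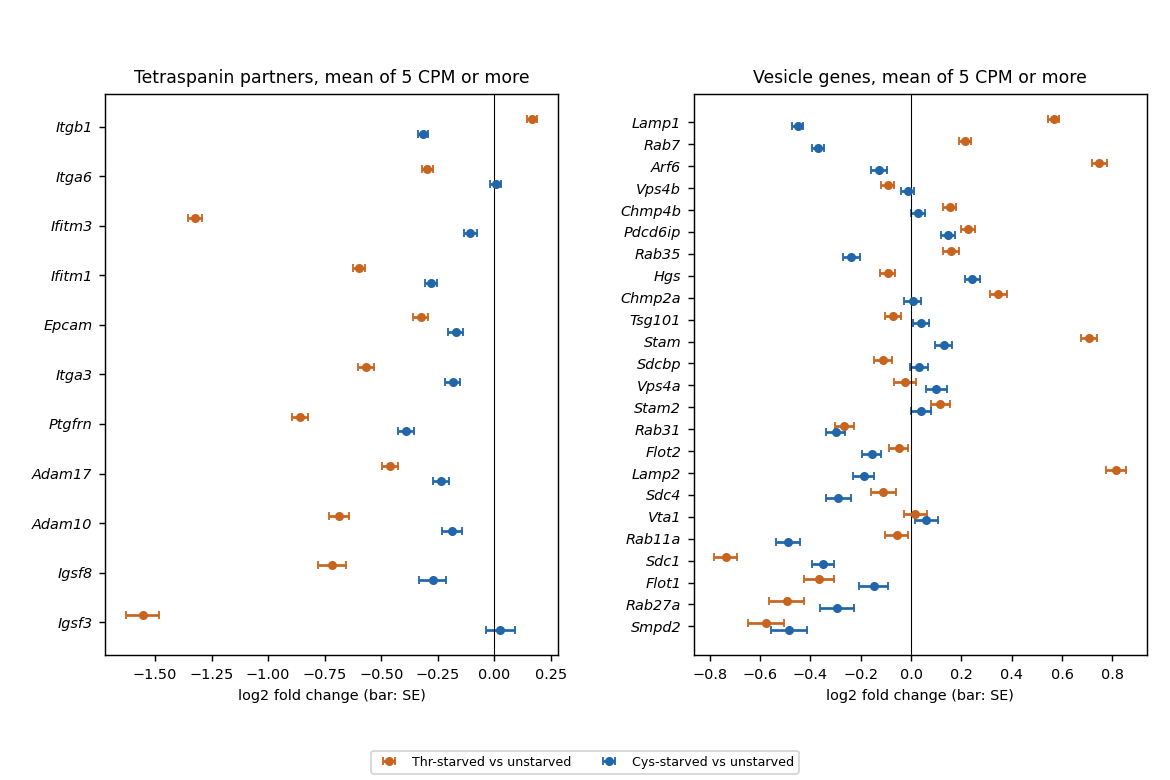
Log2 fold change of Thr-starved (orange) and Cys-starved (blue) against unstarved libraries with the SE as a bar, for tetraspanin partners on the left and genes of vesicle formation on the right, those with a mean of 5 CPM or more. Igsf3 and Ifitm3 lie far to the left with Thr, at -1.56 and -1.32, and Itgb1, Lamp1 and Rab7 lie on opposite sides of 0 in the 2 starvations.

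The genes whose profile over the 9 libraries was closest to that of Cd81 among 11409 genes were Gtf2h2, a subunit of the transcription factor TFIIH, at a distance of 0.11, the glucose transporter gene Slc2a3 at 0.15, the Nodal inhibitor gene Lefty2 at 0.19, Ost4, of the oligosaccharyltransferase, at 0.25 and the mitophagy receptor gene Bnip3 at 0.26. Gtf2h2 had log2 fold changes of -0.84 with Thr and -1.06 with Cys. Closest to Tspan6 were Grn, which encodes the lysosomal protein progranulin, at 0.21, Nsmce2, a SUMO ligase gene, at 0.21, the LIM protein genes Ajuba at 0.23 and Trip6 at 0.27, and Cd63 at 0.27. Grn had 0.31 with Thr and -0.77 with Cys. A tetraspanin was thus among the 5 closest to Tspan6 but not among the 5 closest to Cd81.

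The nearest protein-coding genes that do not overlap the tetraspanins were examined, and 12 of them were in the table. With Cys, 1 was lower, 1 was higher and 10 were not called, against 18.8% of all genes lower and 17.5% higher. With Thr, 8 were lower and 4 were not called, against 31.9% of all genes lower and 31.1% higher. Chid1, which overlaps Tspan4 and was higher in both starvations, is not among the 12. Cd151 and Tspan4 lie on either side of Polr2l, a subunit gene of RNA polymerases, which is 386 bp from Cd151 and 107 bp from Tspan4. Polr2l was lower by -0.45 with Thr and -0.21 with Cys (adjusted p = 9.6e-10 and 0.00014), against -0.28 and -0.72 for Cd151 and -0.50 and -0.49 for Tspan4. Trpm5, 1218 bp from Cd81, had 0.14 CPM in unstarved cells and was not called against them in either starvation. Gdf11 beside Cd63 had -0.60 with Thr and -0.30 with Cys (adjusted p = 0.0052 and 0.19). Pstpip1 beside Tspan3 had -0.79 and 0.23 (adjusted p = 2e-05 and 0.16). Peak1, on the other side of Tspan3, had -0.16 and 0.09, Ap2a2 beside Tspan4 -0.22 and 0.00, Cracr2b beside Cd151 -0.85 and 0.10, and Vwf beside Cd9 -0.95 and -0.17, with Thr and Cys. Between the starvations, 8 of the 12 were lower in Thr-starved than in Cys-starved cells and 4 were not called. Over all genes, 31.6% were lower and 30.4% higher in that comparison. Trpm5 was among the 8, at -2.005 (SE 0.70, adjusted p = 0.016). This rests on very few counts, with means of 0.04 CPM in Thr-starved and 0.19 CPM in Cys-starved cells. The neighbours of Tspan6 were not analysed here.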

How the data were processed

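Groups were read from the sample titles, 3 libraries each. The authors mapped reads of both ends to GRCm38 with STAR 2.7.4a, obtained gene counts with HTSeq and deposited them raw. They also deposited signal values, the same counts divided by a DESeq2 size factor per library. The strand setting of HTSeq is not given in the sources used here. Raw counts entered every test, and the size factors were recovered from the signal table for an alternative. The 8 genes and all gene lists were chosen with earlier results of these data known.

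edgeR 4.0.16 in R 4.3.3 was used with TMM and the quasi-likelihood F test on 20143 genes with 1 or more counts in the 9 libraries together, in a single fit of the 3 groups, with Benjamini-Hochberg adjustment at 0.05 in each of 3 comparisons. Scripts were tested on simulated data. CPM are TMM-scaled, and TPM use the union exon length of GENCODE M21 on GRCm38, where 20171 of 20189 genes had a symbol. Named genes were the 8, the nearest protein-coding genes beside them, in each list the 3 called genes of at least 5 CPM with the largest change in each direction and comparison with unstarved libraries, and for Cd81 and Tspan6 the 5 genes with the smallest root mean square distance in log2(CPM + 0.5) after centring on the unstarved mean. A few more genes of these lists are given for their known role or to complete a count, chosen after their values were seen. Promoters came from RefSeq.

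Alternatives were RLE normalization, the deposited size factors, DESeq2 1.42.0, filterByExpr, the 2 groups alone, a replicate block, a threshold of 0.01 on the adjusted p, the longest transcript as length, and each library left out in turn. After seeing the data, a fit on halved counts was added, since 67.8% of 28226 values from 1 to 20 were even, as were all 9 counts of Cd82. Between replicates of a group the chi-square per gene was 1.98 to 2.13 in genes with few counts, about the counting noise if each fragment gave 2 counts, and 2.82 to 6.78 in genes with many counts, so no pair of libraries agreed within sampling noise. The composition of the encoded proteins was not analysed here.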

Additional observations from a re-analysis of the deposited data

How the results depend on the processing

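Against unstarved libraries the direction of the 7 expressed tetraspanins held under each alternative, and so did the calls of the 5 tested ones but for Cd63 with Thr, which at 0.11 did not pass an adjusted p of 0.01 (0.021) and was 0.10 without Thr-starved replicate 3 and 0.10 without unstarved replicate 2. Over the alternatives Cd81 ran from -0.98 to -0.94 with Thr and from -1.10 to -1.03 with Cys, and Tspan6 from 0.47 to 0.51 and from -1.16 to -1.08. Signs turned for differences that had not been called: between the starvations Cd9 was 0.022 and Tspan4 0.029 with the deposited size factors, and with a library left out Tspan4 ran from -0.040 to 0.021 and Cd82 from -0.44 to 0.135. With Cys, Cd82 ran from -0.59 to 0.071 with a library left out, and was above 0 without Cys-starved replicate 3 or unstarved replicate 2. Further tetraspanins called higher with Thr numbered 0 at an adjusted p of 0.01 and 0 to 3 with libraries left out, those higher with Cys 0 to 1, and vesicle genes lower in Thr-starved than in Cys-starved cells went from 10 to 6 with the deposited size factors. The cause was not tested. Same-numbered libraries did not deviate together (correlations from -0.24 to 0.11), and 2, 0 and 0 of 6 libraries per comparison correlated best with their own number; with the replicate block 6159 genes were called higher and 6329 lower with Thr, 3388 and 3675 with Cys, and 6048 and 6286 between the starvations, and no call of the tetraspanins changed. Depth limits Cd82.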

Other observations

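Genes of vesicle formation and the endosome, where Cd63 and Tspan6 reside, included some that were higher with Thr and lower with Cys. Of 27 listed, 26 were in the table. Of these, 10 were higher, 11 lower and 5 not called with Thr (31.1% and 31.9% of all genes were called higher and lower), and 4 were higher, 13 lower and 9 not called with Cys (17.5% and 18.8%). The medians were -0.05 and -0.14. Lamp1, a main glycoprotein of the lysosome membrane, rose from 400.0 to 592.6 CPM with Thr (0.57, adjusted p = 5.5e-16) and fell to 292.7 CPM with Cys (-0.45, adjusted p = 5.4e-13). Rab7, the GTPase of late endosomes, had 0.21 and -0.37, in the directions of Cd63. Lamp2, Arf6 and Stam had the largest increases with Thr, at 0.81, 0.75 and 0.71. With Cys, Lamp2 and Arf6 were lower, at -0.19 and -0.13, and Stam was higher, at 0.13.

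Genes lower in both starvations were Rab31 with -0.26 with Thr and -0.30 with Cys, Flot1 with -0.36 and -0.15, Smpd2, a sphingomyelinase gene, with -0.58 with Thr and -0.49 with Cys, Rab27a with -0.49 and -0.29, and the syndecan gene Sdc1 with -0.74 and -0.35. Flot1 with Cys passed the threshold only just (adjusted p = 0.049). Sdcbp, which encodes syntenin and binds Cd63, was at -0.11 with Thr (adjusted p = 0.0093) and 0.03 with Cys (adjusted p = 0.54). Rab11a, of recycling endosomes, was lower with Cys (-0.49, adjusted p = 2e-08) and not called with Thr (-0.06, adjusted p = 0.28). With Cys, the 4 higher genes were Hgs (0.24), Pdcd6ip (0.15), Stam (0.13) and Pld2 (0.30), the last named after its value was seen. Of the ESCRT genes, Hgs (-0.09), Vps4b (-0.09) and Tsg101 (-0.07) were lower with Thr, Tsg101 only just (adjusted p = 0.049). Stam (0.71), Chmp2a (0.35), Chmp4b (0.15), Stam2 (0.12) and Pdcd6ip (0.23) were higher. Vps4a (-0.02, adjusted p = 0.64) and Vta1 (0.02, adjusted p = 0.76) were not called.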
